A study of Mus musculus with 9 samples.

Results

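The genes described here were the 46 members of a set of heat shock and unfolded protein response genes, found by symbol among the 19481 genes of the deposited table. The rule is a list of symbols and uses no measured value, but the list was drawn up with earlier results of these data known. All 46 were in the table and all 46 passed the filter on low counts, which left 14725 genes to be tested. By role, 20 members belonged to the cytosolic and mitochondrial heat shock system and 17 to folding and degradation in the endoplasmic reticulum (ER). The other 9 were the sensors of ER stress, Xbp1 and genes of the integrated stress response. RNA was sequenced from 9 subcutaneous tumors of KLN205 cells, a mouse lung squamous cell carcinoma line, grown in young adult female DBA/2 mice, the immunocompetent strain from which the line comes. In 3 tumors the cells carried a SMART inducible control shRNA (control), in 3 the construct sh2 Tmprss11b and in 3 the construct sh3 Tmprss11b. Each line was a puromycin-selected lentiviral pool, and the constructs sh2 and sh3 target the same transcript, of the transmembrane serine protease Tmprss11b. All 9 mice, controls included, drank doxycycline from the time the mean tumor volume reached 100 mm3, and the tumors were resected at the terminal time point, 50 days after injection. The control tumors share the shRNA vector, the drug and the host strain with the others. The paper reports that growth was strongly impaired with the Tmprss11b shRNAs. Sizes of these 9 tumors were not used here, so tumor size and construct cannot be told apart. The labels call the 3 tumors of a group biological replicates, so the spread below is that between tumors.

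Library totals ran from 20653219 to 24047784 counts, so that 3 counts correspond to 0.125 to 0.145 CPM, the read count scaled to the library total. Tmprss11b, listed as Tmprss11bnl, had 0.767, 2.11 and 1.72 CPM with the control shRNA, 0.295, 0.0966 and 0.209 CPM with sh2, and 0.462, 0.203 and 0.214 CPM with sh3, from 2 to 51 counts per tumor. Every shRNA tumor lay below every control tumor. Of the epithelial markers, Epcam, Cdh1, Krt8 and Krt18 were at 234.7 CPM or more in all 9 tumors, and the squamous keratins Krt14 and Krt6a ranged from 12.3 to 389.7 CPM and from 46.4 to 291.9 CPM. The basal markers Krt5 and Trp63 were at 5.02 and 4.66 CPM or less outside control tumor 1, where they were at 87.4 and 6.94 CPM. Skeletal muscle transcripts, summed over 10 markers, reached 3433 CPM in control tumor 3 and 1185 CPM in sh3 tumor 1, against 12.3 to 392.8 CPM in the other tumors. Counts of members are therefore also given without those 2 tumors. In whole-tumor RNA, fewer cells of a type and less RNA per cell cannot be told apart.

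Cells answer unfolded protein in the cytosol through heat shock factor 1 (Hsf1), which binds heat shock elements and raises transcription of the chaperones HSP70, HSP90 and their partners. In the ER, the sensors Ern1 (IRE1), Eif2ak3 (PERK) and Atf6 answer the same problem: Ern1 splices the Xbp1 mRNA, Atf6 is cut to release a transcription factor, and both act on chaperone genes that hold an ER stress response element. Eif2ak3 belongs to the integrated stress response, in which translation is damped while the factor Atf4 is made and turns on Ddit3, Trib3, Chac1 and Asns through C/EBP-ATF composite elements. Tumor cells with a high rate of protein synthesis are known to use all of these arms.

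The elements linked to these arms were read from the promoter windows of RefSeq (build GRCm38.p6, from 250 bases before to 50 after a start site). Windows were found for 39 of the 46 members. Hsf1, Hsp90aa1, Hsp90ab1, Hspa8, Hyou1, Manf and Atf6 had none. The stretches below are shown because each holds the letters of such an element, and that of Herpud1 holds the letters of 2. They are written 5′ to 3′ on the strand of the gene, with the matched letters in capitals.

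Chordc1, heat shock element, chr9:18292260-18292289 (+): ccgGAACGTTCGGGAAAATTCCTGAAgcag
Hsph1, heat shock element, chr5:149636287-149636316 (-): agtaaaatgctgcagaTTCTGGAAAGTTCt
Hspd1 and Hspe1, heat shock element, chr1:55088053-55088082 (-): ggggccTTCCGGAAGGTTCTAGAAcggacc
Hspa5, ER stress response element, chr2:34772020-34772049 (+): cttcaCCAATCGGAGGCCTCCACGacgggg
Hsp90b1, ER stress response elements, chr10:86705513-86705676 (-): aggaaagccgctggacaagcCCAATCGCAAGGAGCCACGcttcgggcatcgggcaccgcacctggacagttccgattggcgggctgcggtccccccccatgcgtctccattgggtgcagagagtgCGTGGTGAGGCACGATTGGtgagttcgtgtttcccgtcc
Herpud1, C/EBP-ATF composite element and ER stress response element II, chr8:94386297-94386407 (+): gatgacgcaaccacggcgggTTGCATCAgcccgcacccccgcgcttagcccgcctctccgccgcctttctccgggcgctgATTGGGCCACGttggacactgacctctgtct
Trib3, C/EBP-ATF composite element, chr2:152344028-152344057 (-): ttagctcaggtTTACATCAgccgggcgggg
Chac1, C/EBP-ATF composite element, chr2:119351038-119351067 (+): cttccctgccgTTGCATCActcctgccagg
Asns, C/EBP-ATF composite element, chr6:7693214-7693243 (-): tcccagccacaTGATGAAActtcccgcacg

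The heat shock element was searched as 3 alternating units (GAA, TTC, GAA or TTC, GAA, TTC), with 2 bases of any kind between units. The patterns are each other's reverse complement, and a longer run of units counts as overlapping matches. It was found in 4 of the 39 members with a window (10.3%), Hsph1, Hspd1, Hspe1 and Chordc1, and in 0.662% of all 27025 genes with a window. Chordc1 held 3 overlapping matches across its start site. Hspd1 and Hspe1, which encode the 2 parts of the mitochondrial chaperonin, lie head to head and share the same 2 matches. The ER stress response element (CCAAT, then 9 bases of any kind, then CCACG, on either strand) was found in 8 members (20.5%), Hspa5, Hsp90b1, Dnajc3, Creld2, Calr, Canx, Pdia6 and Syvn1, against 0.137% of all genes with a window. Hsp90b1 held it on each strand. Its relative, ER stress response element II (ATTGG, 1 base of any kind, CCACG), was in Herpud1 and Dnajb11 (5.13%, against 0.0444%). The shorter C/EBP-ATF composite element (TGATGNAA, on either strand) was in Herpud1, Trib3, Chac1 and Asns (10.3%, against 4.51%). No match in a window says only that these letters are not there. The printed stretches of Chordc1, Hsph1, Hspd1, Hspa5, Trib3 and Asns touch an exon of GENCODE vM21, and those of Hsp90b1, Herpud1 and Chac1 do not.

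Per length, the members covered a wide range of levels. The deposited TPM, a level per transcript length, summed to 13676 to 21741 over the 46 members, which is 1.37% to 2.17% of all TPM in a tumor. Hsp90ab1, the constitutive cytosolic HSP90, was the highest member, with a median of 2437 TPM (range of 9 tumors 1702 to 3097). It was followed by the ER proteins Calr, a calcium-binding lectin chaperone, at a median of 2299 TPM (1424 to 2949), Hsp90b1 (GRP94), at 1640 TPM (1129 to 2044), and Hspa5 (BiP), the ER HSP70, at 1497 TPM (981.1 to 2095). The ranges of these 4 neighbors overlapped. The disulfide isomerases Pdia3 and Pdia6 came next, at medians of 1089 and 882.6 TPM. At the other end, the stress-inducible HSP70 gene Hspa1a had a median of 3.91 TPM (1.45 to 6.05), below the range of every other member. Its neighbor Hspa1b had a median of 45.7 TPM (23.3 to 65.7), while the constitutive HSP70 Hspa8 was at 423.3 TPM (315.2 to 459.4). The sensors were low in this order of levels: Atf6 at a median of 44.7 TPM, Eif2ak3 at 34.8 TPM and Ern1 at 24.5 TPM, with overlapping ranges.

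**Figure D1:**
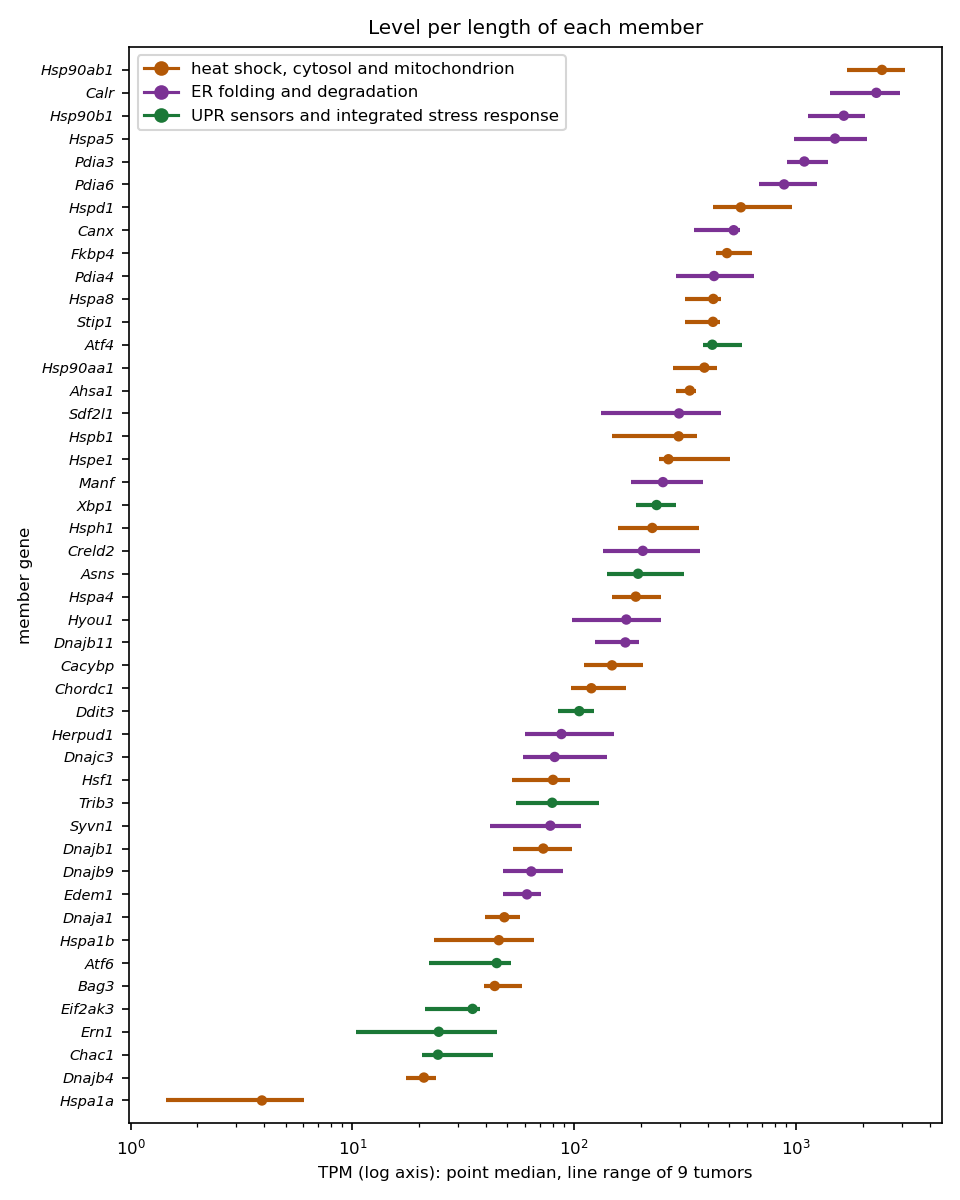
Level per length of each of the 46 members: the x axis is TPM on a log scale, the points are medians of 9 tumors, the lines run from the lowest to the highest tumor, and colors give the role. Hsp90ab1 and the ER proteins Calr, Hsp90b1 and Hspa5 stand at the top and Hspa1a stands alone at the bottom.

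Several of these genes share sequence with other genes, and how the counting treated reads with more than 1 place was not given in the sources used here. As windows of 50 bases, 62.3% of Hspa1b and 60.3% of Hspa1a transcript sequence recurred in another gene, nearly all of it in each other, so their separate values are uncertain. The share was 48.8% for Hspb1, 47.5% for Hsp90aa1, 39.7% for Hspd1, 38.6% for Hspa8, 18.4% for Hspe1, 11.9% for Dnaja1 and 6.74% for Cacybp, mostly with genes that the table does not list, pseudogenes among them. For Fkbp4 and Chordc1 it was 1.43% and 0.726%, and for Atf6 it was 0.

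The comparisons asked how these genes differed between Tmprss11b shRNA and control tumors, with sh2, with sh3, with the mean of the constructs, and with sh3 against sh2. With edgeR's quasi-likelihood test and Benjamini-Hochberg adjustment over 14725 genes, no member and no other gene passed a false discovery rate (FDR) of 0.05 in any of the 4 comparisons (0 genes, 0%). The lowest FDR of a member was 0.999 for sh2 against control, 0.753 for sh3 against control, 0.982 for the mean of both and 0.673 for sh3 against sh2. With DESeq2's Wald test on the same counts, 2, 41, 9 and 48 genes passed, of which 0, 3, 1 and 2 were members. With edgeR's likelihood ratio test, 8 genes passed for sh3 against control, 8 for the mean of both and 14 for sh3 against sh2, of which 1, in the last comparison, was a member.

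At an unadjusted p under 0.05, 3 members differed for sh2 against control, when 3.52% of all genes did. All 3 were higher (1.64% of all genes were) and 0 lower (1.87%). For sh3 against control there were 12, against 6.63% of all genes, with 11 higher (3.5%) and 1 lower (3.13%). For the mean of both there were 8, against 4.09%, with 7 higher (1.35%) and 1 lower (2.74%). For sh3 against sh2 there were 6, against 7.18%, with 4 higher (3.52%) and 2 lower (3.66%). The median log2 fold change of the 46 members was 0.19 for sh2, 0.17 for sh3 and 0.18 for the mean of both, while that of all genes was 0.01, 0.03 and 0.02. It lay above 0 in 39, 35 and 43 members, and in 51.8%, 54.9% and 55% of all genes. Between the constructs the median of the members was -0.00, with 23 members on each side. The 3 comparisons with control share the same control tumors. The counts depended on single tumors. The 12 for sh3 became 6 without control tumor 3 and 7 without sh3 tumor 3, the 8 for the mean became 4 without control tumor 2, 4 without control tumor 3 and 5 without sh2 tumor 3, and the 3 for sh2 became 5 without sh3 tumor 2. Without the 2 tumors with the most muscle RNA, the sh3 count was 6 and that of the mean was 4.

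**Figure D2:**
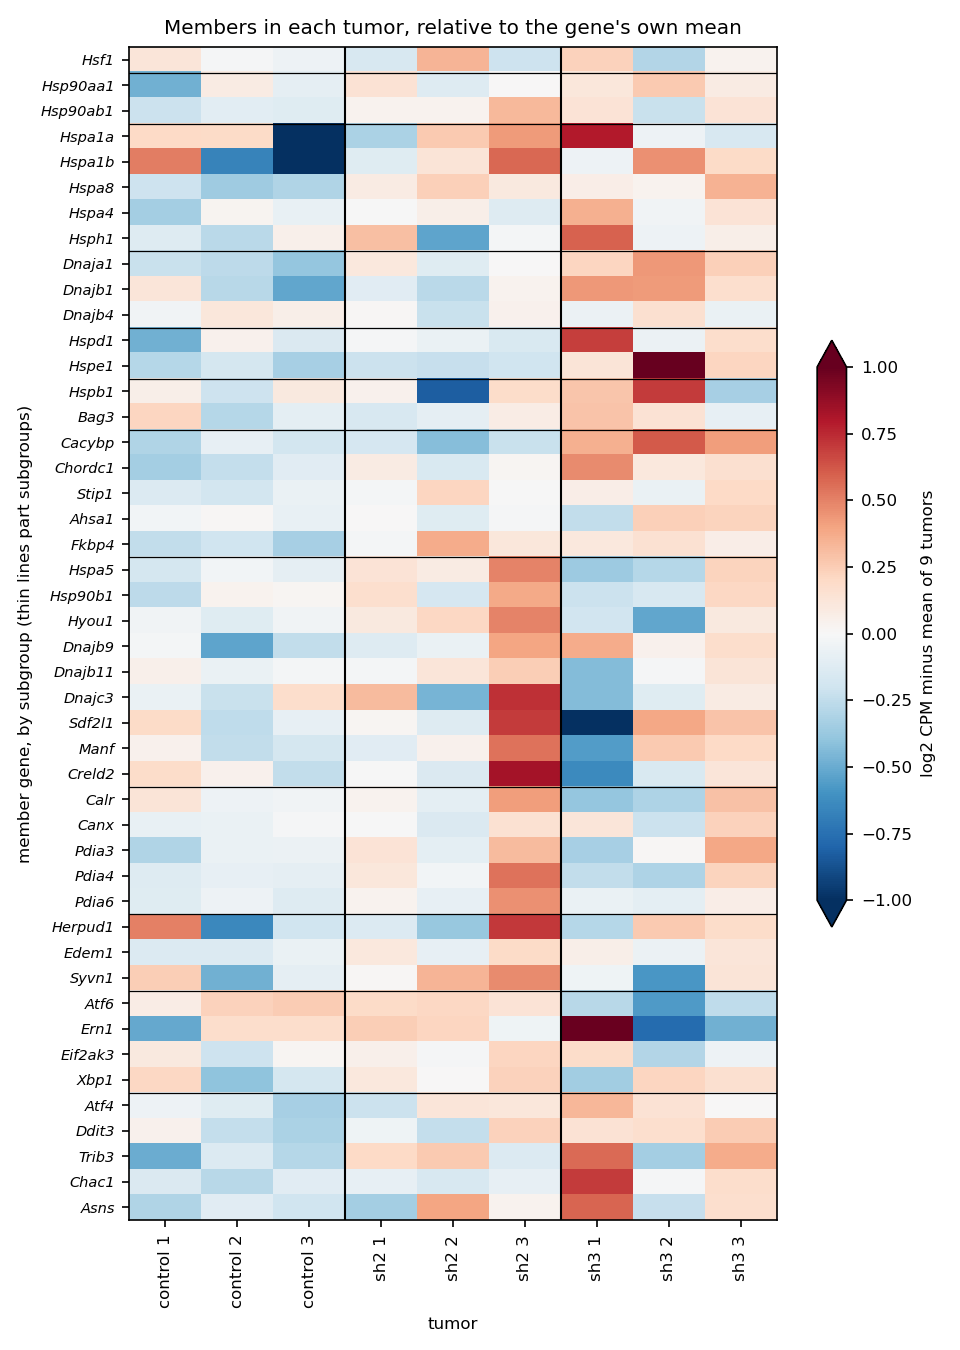
Each member (rows, by subgroup) in each tumor (columns): color is log2 CPM minus the gene's own mean of 9 tumors, red for higher and blue for lower, with the scale ending at -1 and 1. The heat shock rows are bluest in the control columns, and the ER rows are reddest in sh2 tumor 3.

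The tumor with the highest level of a member was a control tumor for 1 of 46 members (2.17%), Atf6, against 21.1% of all genes tested. It was an sh2 tumor for 22 members (47.8%, against 26.1% of all genes) and an sh3 tumor for 23 (50%, against 52.8%). By role, of the 20 heat shock members, 15 (75%) were highest in an sh3 tumor. Of the 17 ER folding and degradation members, 15 were highest in a single tumor, sh2 tumor 3, and 2 in sh3 tumor 3. Among all 14725 genes tested, 1185 were highest in sh2 tumor 3 and 1258 in sh3 tumor 3.

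Hsf1 itself, the transcription factor of the heat shock response, was at 75.6, 68.9 and 67.2 CPM in control, 62.2, 88.1 and 60.2 CPM in sh2 and 81.4, 56.9 and 71.1 CPM in sh3 tumors. The groups overlapped fully, and the log2 fold change was -0.01 ± 0.16 (SE) for the mean of both constructs. Its sign turned in 4 of the fits that left out a tumor, with values up to 0.05. Its mRNA level does not report its activity, which is set on the protein.

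Among the HSP70 genes, Hspa8, the constitutive HSC70 that folds new proteins and strips clathrin coats, was at 312.2, 282.2 and 293.2 CPM in control tumors. It was at 381.5, 425.9 and 386.7 CPM with sh2 and at 379.2, 369.2 and 460.2 CPM with sh3. All 6 shRNA tumors lay above all 3 controls. The log2 fold change was 0.43 ± 0.13 (SE, FDR = 0.999, edgeR) for sh2 and 0.44 ± 0.12 (FDR = 0.982, edgeR) for the mean of both. The exact permutation test of the 6 against the 3 gave p = 0.0238, the smallest value it can give for groups that size, two-sided. With the related genes Hspa4 and Hsph1, whose HSP110 proteins release nucleotide from HSP70, all 5 members of this subgroup had fold changes above 0 in both comparisons with control, with a median log2 fold change of 0.31 for sh2 and 0.42 for sh3. The sh2 median was 0.16 without control tumor 3 (4 of 5 above 0), 0.16 without sh2 tumor 3 and 0.47 without control tumor 1, and the sh3 median was 0.17 without sh3 tumor 1. Hspa4 ran from 300.3 to 387.4 CPM in control and from 370.7 to 486 CPM in sh3 tumors, and Hsph1 from 296.2 to 371.5 and from 344.5 to 537.7 CPM. In both the groups overlapped.

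The inducible pair Hspa1a and Hspa1b were the most variable of all 46 members, with SDs of log2 CPM over the 9 tumors of 0.59 and 0.54. Hspa1b was at 76.4, 33.7 and 26.4 CPM in control, 49.2, 58.5 and 79.9 CPM in sh2 and 51.8, 73.5 and 61.3 CPM in sh3 tumors. Hspa1a was at 4.77, 4.76 and 1.64 CPM, 3.33, 4.98 and 5.59 CPM, and 7.21, 4.01 and 3.72 CPM. Control tumor 3 was the lowest in both, while control tumor 1 was the second highest in Hspa1b. Since reads may be split between them, the sum was also taken. It was 49.2 ± 28.2 CPM (SD, n = 3) in control, 67.2 ± 16.8 CPM in sh2 and 67.2 ± 9.42 CPM in sh3 tumors, and its log2 fold change was 0.45 ± 0.32 (SE) for the mean of both constructs. That of Hspa1b alone, 0.45 ± 0.33 (SE), was 1.04 without control tumor 1, 0.28 without control tumor 2 and 0.18 without control tumor 3. This pair was singled out after its values were seen.

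The HSP40 co-chaperones present clients to HSP70. Dnaja1, the main cytosolic type A member, was at 103.5, 100.8 and 92.7 CPM in control, 130.5, 111 and 121.4 CPM in sh2, and 140.1, 163 and 143.1 CPM in sh3 tumors. The 3 groups did not overlap: every sh2 tumor lay above every control and every sh3 tumor above every sh2 tumor. The log2 fold change was 0.29 ± 0.12 (SE, FDR = 0.999, edgeR) for sh2, 0.59 ± 0.12 (FDR = 0.753) for sh3 and 0.44 ± 0.11 (FDR = 0.982) for the mean of both, where it had the lowest p of the members. With DESeq2's Wald test, Dnaja1 passed for sh3 (FDR = 0.00337) and for the mean of both (FDR = 0.0486). Dnajb1, the stress-inducible HSP40, was at 75.7, 57.4 and 48.6 CPM in control, 64.2, 57.8 and 71.3 CPM in sh2 and 94, 93.5 and 78.1 CPM in sh3 tumors, so the sh3 tumors lay above all others. Dnajb4 stayed between 22.1 and 28.8 CPM in all 9 tumors.

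Both cytosolic HSP90 genes had fold changes above 0 in the comparisons with control. Hsp90ab1 was at 2325 to 2505 CPM in control, 2753 to 3363 CPM in sh2 and 2305 to 2962 CPM in sh3 tumors, and its log2 fold change for the mean of both constructs was 0.23 ± 0.15 (SE, FDR = 0.982, edgeR). Its stress-responsive relative Hsp90aa1 ranged from 340.5 to 504 CPM in control and from 503.6 to 568.7 CPM in sh3 tumors, where sh3 tumor 3 was just under control tumor 2.

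Of the HSP90 co-chaperones, Fkbp4 (FKBP52), an immunophilin that guides steroid receptor complexes, was at 406.1, 419.8 and 381.1 CPM in control, 473.4, 620.7 and 520.6 CPM in sh2 and 516.5, 533.4 and 503.2 CPM in sh3 tumors. All shRNA tumors lay above all controls. The log2 fold change was 0.42 ± 0.14 (SE, FDR = 0.999, edgeR) for sh2 and 0.39 ± 0.12 (FDR = 0.982) for the mean of both. Together, Hspa8, Dnaja1 and Fkbp4 were the 3 members (of 46) whose 6 shRNA tumors all exceeded the 3 controls, a pattern seen in 1.21% of all genes. No member was lower in every shRNA tumor, which 0.958% of all genes were. By construct, 9 members were higher (5.56% of all genes) and 0 lower (5.83%) in all sh2 than in all control tumors, and 12 were higher (6.78%) and 1 lower (5.44%) in all sh3 than in all control tumors. Between the constructs, 6 were higher (5.51%) and 2 lower (4.62%) in all sh3 than in all sh2 tumors.

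Cacybp, a co-chaperone that also recruits a ubiquitin ligase, was at 116.8, 135.5 and 126.6 CPM in control and 128.1, 106.8 and 122.8 CPM in sh2 tumors, which overlapped. In sh3 tumors it was at 183.4, 219.7 and 191.9 CPM, above all 6 others. The log2 fold change was 0.65 ± 0.13 (SE, FDR = 0.753, edgeR) for sh3 against control and 0.73 ± 0.13 (FDR = 0.673) for sh3 against sh2, the lowest p of a member in each. Under DESeq2's Wald test it passed in both (FDR = 0.00337 and 0.000245), and under the likelihood ratio test in the second (FDR = 0.0359), while over all alternatives its FDR ran from 0.00337 to 1 and from 0.000245 to 0.97. Chordc1, an HSP90 partner with the heat shock element printed above, was at 90.9, 97.4 and 106.6 CPM in control, 121.7, 103.5 and 116.8 CPM in sh2 and 159.9, 123.5 and 128.7 CPM in sh3 tumors. Its log2 fold change was 0.48 ± 0.14 (SE, FDR = 0.753, edgeR) for sh3 and 0.35 ± 0.12 (FDR = 0.982) for the mean of both. In sh2, tumor 2 lay within the control range. Stip1 (HOP), which bridges HSP70 and HSP90, was at 340.5 to 371.1 CPM in control and at 382 to 450.6 CPM in sh2 tumors. Ahsa1, which speeds the HSP90 ATPase, overlapped in all groups, between 161.3 and 224.7 CPM.

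**Figure D3:**
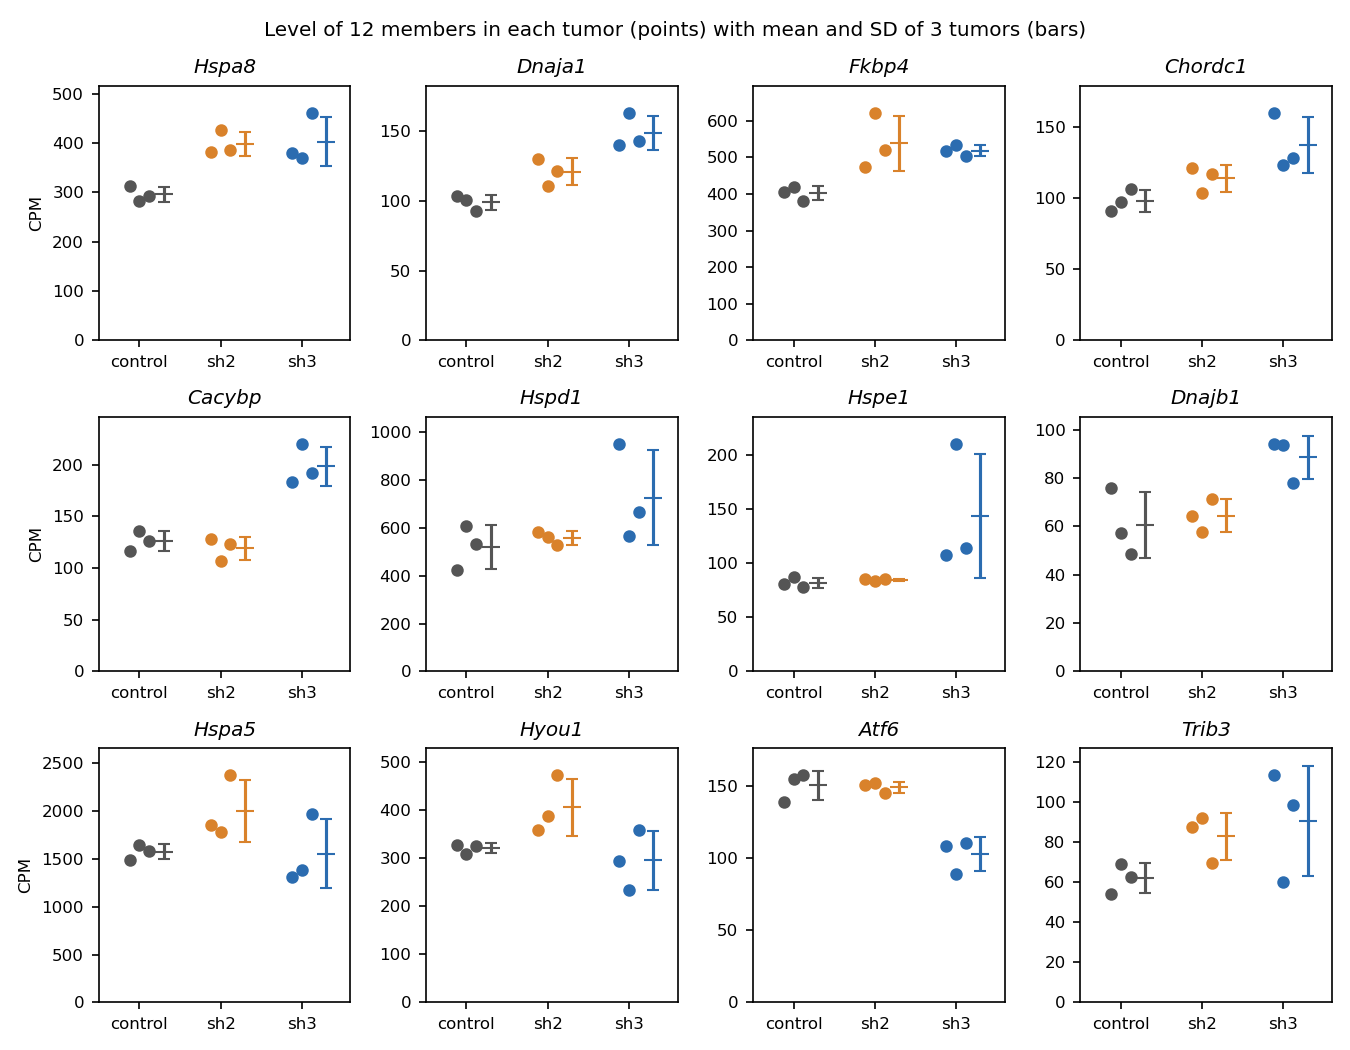
CPM of 12 members in each tumor (points, in the order of replicate numbers) with the mean and SD of the 3 tumors of a group (bars), the y axis starting at 0. In Hspa8, Dnaja1 and Fkbp4 both shRNA groups lie above control, in Cacybp, Hspe1 and Dnajb1 the sh3 group alone lies above the other groups, and in Atf6 the sh3 group lies below.

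The mitochondrial chaperonin folds proteins imported into the matrix. Hspe1 (HSP10), its lid, was at 80.5, 87.1 and 77.9 CPM in control and 84.9, 83.8 and 85.6 CPM in sh2 tumors. In sh3 tumors it was at 107.5, 209.7 and 114.3 CPM. All 3 lay above the others, but sh3 tumor 2 was far above its group. The log2 fold change for sh3 against sh2 was 0.76 ± 0.23 (SE, FDR = 0.673, edgeR), and over the fits that left out a tumor it ran from 0.39 to 0.93. For the mean of both constructs it was 0.43. Hspd1 (HSP60), transcribed from the same bidirectional promoter and with the same heat shock elements, was at 422.4, 606 and 531.8 CPM in control, 582.5, 562.3 and 527.8 CPM in sh2 and 949.6, 564.4 and 665.5 CPM in sh3 tumors. Here sh3 tumor 1 was the highest, and sh3 tumor 2, the highest in Hspe1, was within the control range. The small heat shock protein Hspb1 (61 to 174.6 CPM) and Bag3, its adaptor to HSP70 (43.3 to 64.4 CPM), overlapped between all groups. Bag3 had a log2 fold change of 0.08 ± 0.14 (SE) for the mean of both, and of -0.03 without control tumor 2.

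Over the 20 heat shock members, the median log2 fold change was 0.10 for sh2, 0.35 for sh3 and 0.16 for sh3 against sh2. That of all genes was 0.01, 0.03 and 0.03. In sh3 against control 18 of 20 members lay above 0, against 54.9% of all genes. At an unadjusted p under 0.05 there were 8 members, all higher, while 3.5% of all genes were higher. These 8 were Hspa8, Dnaja1, Dnajb1, Hspd1, Hspe1, Cacybp, Chordc1 and Fkbp4. As a median deviation from each gene's mean, the control tumors were at -0.17, -0.18 and -0.12, the sh2 tumors at -0.01, -0.11 and 0.01, and the sh3 tumors at 0.22, 0.14 and 0.15. In fits that left out 1 tumor, the sh3 median ran from 0.27 to 0.38, and the 8 members at an unadjusted p under 0.05 became 5 without control tumor 3 and 5 without sh3 tumor 3. The sh2 median became 0.18 without control tumor 2, and that of sh3 against sh2 became 0.10 without sh3 tumor 1. Without the 2 tumors with the most muscle RNA the sh3 median was 0.28, with 5 members at an unadjusted p under 0.05. Markers of other cell types are given beside these values, though none of them passed the FDR. The summed level of 8 fibroblast markers was 3132 to 5472 CPM in control, 2442 to 4059 CPM in sh2 and 1324 to 2332 CPM in sh3 tumors. All 8 had log2 fold changes below 0 for sh3 against control, with 5 of 8 at an unadjusted p under 0.05. The 6 endothelial markers were also all below 0, with 2 at an unadjusted p under 0.05, and summed to 239 to 283.3 CPM in control and 158.4 to 264.1 CPM in sh3 tumors. The 6 T cell markers present were all above 0, with a median log2 fold change of 0.64 and none at an unadjusted p under 0.05, and summed to 70.7 to 85.3 CPM in control and 50.3 to 151 CPM in sh3 tumors. Of the 8 macrophage markers present, 4 were above and 4 below 0, and their sums of 1040, 5384 and 3445 CPM in sh3 tumors lay on both sides of the control range of 2648 to 2990 CPM. The part of these cells in the chaperone levels was not tested.

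Among the ER chaperones, Hspa5 (BiP), the chaperone that holds the sensors inactive, was at 1493, 1650 and 1587 CPM in control, 1854, 1783 and 2374 CPM in sh2 and 1314, 1387 and 1967 CPM in sh3 tumors. All sh2 tumors lay above control, while sh3 tumors lay on both sides. Hyou1 (GRP170), its nucleotide exchange factor, was at 326.2, 308.4 and 325.7 CPM in control, 358.2, 386.6 and 471.9 CPM in sh2 and 293.2, 233.8 and 357.8 CPM in sh3 tumors. Its log2 fold change was 0.34 ± 0.18 (SE, FDR = 0.999, edgeR) for sh2 and -0.46 ± 0.18 (FDR = 0.673) for sh3 against sh2, and every sh3 tumor was below every sh2 tumor. Hsp90b1, the ER HSP90, overlapped between groups (1569 to 1925, 1672 to 2443 and 1616 to 2163 CPM). Dnajb9 (ERdj4), which presses Ern1 back to its inactive form, was at 53.6, 37.8 and 46 CPM in control, 49.7, 51.9 and 71.5 CPM in sh2 and 70.5, 56.2 and 61.4 CPM in sh3 tumors, with a log2 fold change of 0.39 ± 0.17 (SE, FDR = 0.982, edgeR) for the mean of both. It was the single ER member at an unadjusted p under 0.05 in sh3.

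Sdf2l1, a lumenal partner of the ER HSP40 proteins and among the 6 most variable members (SD of log2 CPM 0.51), was at 155.2, 113.5 and 128.1 CPM in control, 137.2, 123.8 and 219.8 CPM in sh2 and 62.5, 177.6 and 165.4 CPM in sh3 tumors. The highest and the lowest value were both in shRNA tumors. Creld2, an ER calcium-binding protein, was likewise at 216.9 CPM in sh2 tumor 3 and at 78.5 CPM in sh3 tumor 1, with control tumors at 102.7 to 138.5 CPM. Of the lectin chaperones and disulfide isomerases, which fold glycoproteins and form disulfide bonds, Pdia4 was at 434.4 to 450.2 CPM in control and at 468.1 to 695.3 CPM in sh2 tumors. Pdia3 (ERp57) overlapped between all groups, with a log2 fold change of 0.23 ± 0.18 (SE, FDR = 0.982, edgeR) for the mean of both.

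In ER-associated degradation, which sends unfolded proteins back to the cytosol, Herpud1 was at 106.1, 47.9 and 65.2 CPM in control, 68.2, 57.6 and 122.2 CPM in sh2 and 61.6, 90.1 and 85.2 CPM in sh3 tumors. Its control tumors alone spanned most of that range (SD of log2 CPM over the 9 tumors 0.44). Edem1, a lectin of this route, was much steadier, at 142.8 to 150.3 CPM in control, 148.7 to 179.3 CPM in sh2 and 150.6 to 170.7 CPM in sh3 tumors, with a log2 fold change of 0.17 ± 0.10 (SE, FDR = 0.982, edgeR) for the mean of both. Syvn1 (HRD1), the ubiquitin ligase, overlapped between all groups, from 81.9 to 170.2 CPM.

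Over the 17 ER folding and degradation members, all 17 log2 fold changes lay above 0 for sh2 (51.8% of all genes did). The median was 0.28, against 0.01 over all genes. None had an unadjusted p under 0.05, which 3.52% of all genes had. For sh3, 10 of 17 lay above 0 (54.9% of all genes did), with a median of 0.02, against 0.03 over all genes. For sh3 against sh2, 15 of 17 lay below 0, with a median of -0.21. Of all genes 54.9% lay above 0 there, with a median of 0.03. The sh2 value of the members depended on 1 tumor. Without sh2 tumor 3, 12 of 17 lay above 0 and the median was 0.09, and the median for sh3 against sh2 was then -0.07. The sh3 median was -0.17 without sh3 tumor 3, with 4 of 17 above 0, and 0.09 without sh3 tumor 1, with 14 of 17 above 0. The median for sh3 against sh2 was then -0.36 and -0.11, and it was -0.34 without sh2 tumor 2. As a median deviation from each gene's mean, sh2 tumor 3 was at 0.47 and the other sh2 tumors at 0.03 and -0.09, sh3 tumors were at -0.28, -0.12 and 0.18, and control tumors were between -0.08 and -0.04. Markers of plasma cells, which are rich in ER, were uneven across these tumors. Of the 7 present, sh2 tumor 3 was the highest tumor in Igj (J chain), at 67.4 CPM against 1.3 to 64.3 CPM in the other tumors, and in Derl3, a gene of ER degradation, at 33.5 CPM against 2.31 to 12.8 CPM. The lowest Derl3 value was in sh3 tumor 1, where the median deviation of the ER members was -0.28. Igj was next highest in sh3 tumor 2, at 64.3 CPM, where that median deviation was -0.12. Mzb1 was highest in sh3 tumor 2, at 6.3 CPM, and next in sh2 tumor 3, at 3.13 CPM. Prdm1, Fkbp11 and Sdc1 were highest in a control tumor, at 39.6, 8.35 and 1391 CPM, against 23.3, 6.72 and 1212 CPM in sh2 tumor 3. Tnfrsf17 was at 0 counts in 4 tumors, sh2 tumor 3 among them, and at 0.203 CPM or less in the rest. The 7 markers summed to 887.8 to 1450 CPM in control, 1160 to 1346 CPM in sh2 (the highest in sh2 tumor 3) and 1011 to 1108 CPM in sh3 tumors, most of it Sdc1, which epithelial cells also make. Fibroblast markers summed to 4059 CPM in sh2 tumor 3, the highest outside control tumor 1, and to 1770, 2332 and 1324 CPM in sh3 tumors. The part of these cells in the ER values was not tested.

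**Figure D4:**
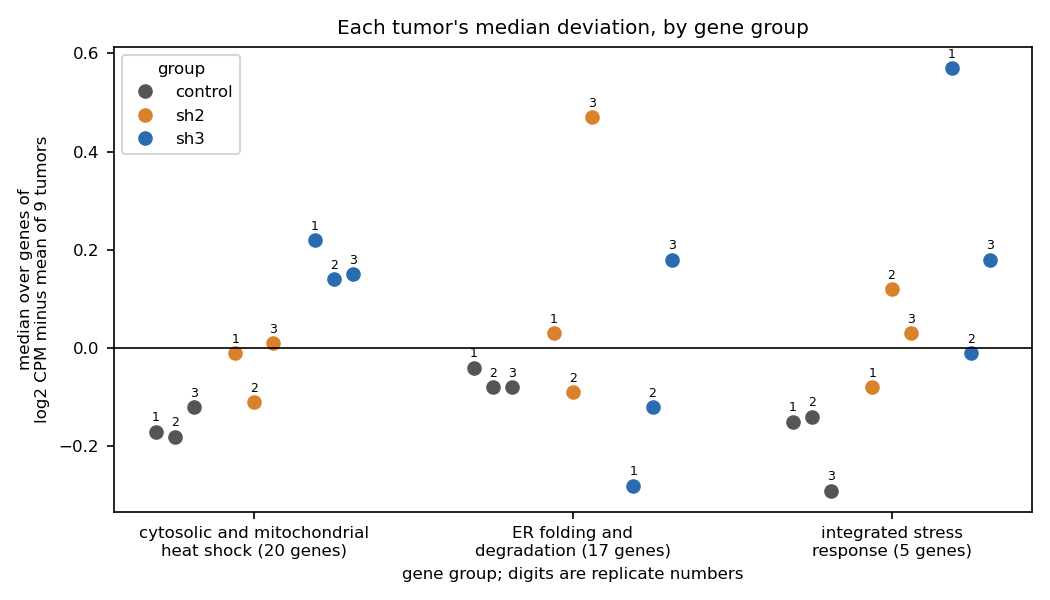
Median over genes of log2 CPM minus the gene's mean of 9 tumors (y axis), for each tumor (points, digits are replicate numbers) in 3 gene groups (x axis). In the heat shock group the 3 sh3 tumors, at 0.14 to 0.22, lie above the control tumors, at -0.18 to -0.12, while in the ER group sh2 tumor 3, at 0.47, stands apart.

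Of the ER stress sensors, Atf6 was at 139, 154.5 and 157.3 CPM in control, 150.8, 151.7 and 144.8 CPM in sh2 and 108.5, 89.1 and 110.7 CPM in sh3 tumors. All sh3 tumors lay below all others, while sh2 and control overlapped. The log2 fold change was -0.55 ± 0.12 (SE, FDR = 0.753, edgeR) for sh3 against control and -0.54 ± 0.12 (FDR = 0.673) for sh3 against sh2. It was -0.28 ± 0.11 (FDR = 0.982) for the mean of both. Atf6 was the single member with an unadjusted p under 0.05 that lay below control, and with DESeq2's Wald test it passed for sh3 against control (FDR = 0.014) and for sh3 against sh2 (FDR = 0.0177). Over all alternatives its FDR ran from 0.014 to 1 and from 0.0177 to 0.97. Ern1, the third most variable member (SD of log2 CPM 0.53), was at 26.8, 43.1 and 43 CPM in control, 45.2, 44.3 and 37.1 CPM in sh2 and 75.8, 22.4 and 27.3 CPM in sh3 tumors, where both the highest and the lowest value were found. Eif2ak3 (51.5 to 73.3 CPM) and Xbp1 (181.7 to 280.7 CPM) overlapped between all groups. Gene counts do not show whether Xbp1 was spliced.

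All 5 members of the integrated stress response had log2 fold changes above 0 in both comparisons with control, with medians of 0.18 for sh2 and 0.41 for sh3. Atf4, its central factor, was at 323.7, 308.1 and 267.3 CPM in control, 289.5, 364.6 and 363.6 CPM in sh2 and 421.8, 371.7 and 337 CPM in sh3 tumors, with every sh3 tumor above every control. Trib3, a pseudokinase that dampens the response, was at 54.2, 69.4 and 62.7 CPM in control, 87.6, 91.9 and 69.6 CPM in sh2 and 113.5, 60.3 and 98.8 CPM in sh3 tumors. Its log2 fold change for the mean of both was 0.48 ± 0.20 (SE, FDR = 0.982, edgeR). The sh2 tumors lay above all controls and sh3 tumor 2 lay among them. Ddit3 (CHOP), at 31.6 to 40.7 CPM in control and 43.6 to 47 CPM in sh3 tumors, and Chac1, which breaks down glutathione, at 14.5 to 16.3 and 17.4 to 28.6 CPM, were also higher in all sh3 than in all control tumors. Asns (asparagine synthetase) ran from 139.6 to 159 CPM in control and from 146.5 to 256.5 CPM in sh3 tumors, which overlapped. In 4 of these 5 genes the highest tumor was sh3 tumor 1, which was the highest for 3241 of all 14725 genes tested. Without that tumor the median for sh3 was 0.26, with 5 of 5 above 0. The count at an unadjusted p under 0.05 for sh3 was 2 of 5, all higher, while 3.5% of all genes were higher. That count was 0 without sh3 tumor 1, control tumor 2, control tumor 3 or sh2 tumor 1. The last is outside this comparison but in the fit. Without sh3 tumor 2 it was 3.

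**Figure D5:**
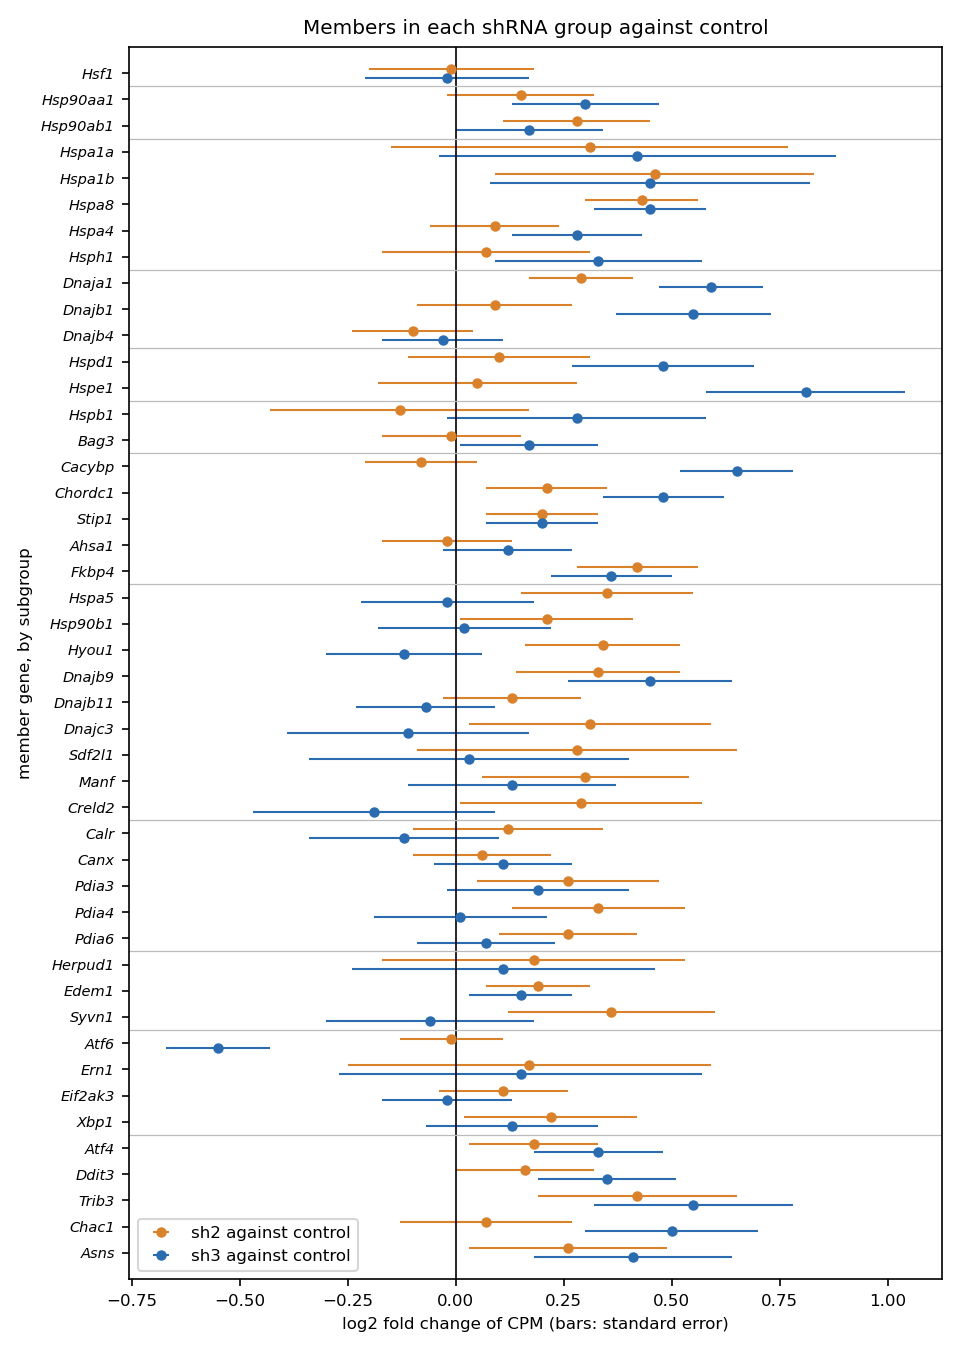
Log2 fold change of each member (rows, by subgroup) for sh2 (orange) and sh3 (blue) against control; bars are standard errors. Dnaja1, Hspa8 and Fkbp4 lie to the right of 0 for both constructs, Cacybp and Hspe1 for sh3 with sh2 near 0, and Atf6 lies at -0.55 for sh3 and -0.01 for sh2.

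Members with the printed elements were set beside those without. The 4 members with a heat shock element had a median log2 fold change of 0.08 for sh2 and 0.48 for sh3 against control, and the other members with a window 0.20 and 0.15. The 62 tested genes of any kind that hold the element had medians of 0.01 and 0.06. The 8 members with an ER stress response element had a median of 0.27 for sh2 and -0.04 for sh3, and the other members 0.18 and 0.33. The 18 tested genes that hold it, those 8 among them, had medians of 0.19 and -0.09. The 4 members with a C/EBP-ATF composite element had medians of 0.22 and 0.45, the other members 0.19 and 0.17, and the 314 tested genes that hold it -0.02 and 0.02. In each case the members without the element include those of the other arms, so element and arm are not separated here. These are counts of letters and levels of RNA, with no measure of binding.

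The relation between members of an arm was examined across the 9 tumors in 8 pairs of genes, on the log2 CPM scale, with exact permutation tests over all pairings and Benjamini-Hochberg adjustment over the 8. Hspa5 and Hsp90b1, both with the ER stress response element, varied together (Pearson's r = 0.88, exact p = 0.00206, adjusted 0.0165; Spearman's rho = 0.83, exact p = 0.00827, adjusted 0.0661). The r was 0.88 after removing group means and 0.74 without the 2 tumors farthest from the median, sh3 tumor 1 and sh2 tumor 3. The other 7 pairs did not pass. Atf4 and Asns had r = 0.72 (exact p = 0.0284, adjusted 0.0979; rho = 0.60, exact p = 0.0968, adjusted 0.322), with 0.60 after removing group means and 0.54 without sh3 tumor 1 and control tumor 3. Hspa1b and Dnajb1 had r = 0.70 (exact p = 0.0367, adjusted 0.0979; rho = 0.57, exact p = 0.121, adjusted 0.322), which was 0.82 after removing group means and 0.17 without control tumors 2 and 3, so that it rests on those tumors. Hspa1a and Hspa1b had r = 0.60 (exact p = 0.096, adjusted 0.192; rho = 0.48, exact p = 0.194, adjusted 0.388), with 0.50 after removing group means and 0.22 without sh3 tumor 1 and control tumor 3. Hspa5 and Hspa1b, from the ER and the cytosol, had r = 0.20 (exact p = 0.602, adjusted 0.785; rho = 0.18, exact p = 0.644, adjusted 0.644). The remaining pairs were Hspa1b with Hsph1 (r = -0.07, exact p = 0.858, adjusted 0.858; rho = -0.18, exact p = 0.644, adjusted 0.644), Ddit3 with Trib3 (r = 0.18, exact p = 0.625, adjusted 0.785; rho = 0.27, exact p = 0.493, adjusted 0.644), and Hspa1b with Fos, an immediate early gene (r = 0.15, exact p = 0.687, adjusted 0.785; rho = 0.20, exact p = 0.613, adjusted 0.644). After removing group means, r was 0.09 for Hspa5 with Hspa1b, -0.30 for Hspa1b with Hsph1, -0.43 for Ddit3 with Trib3 and 0.24 for Hspa1b with Fos, and without the 2 farthest tumors it was -0.13, -0.47, -0.10 and 0.12.

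Other genes of the same pathways were counted from lists that hold no member. Of 23 other heat shock genes, 0 passed the FDR in any comparison. For the mean of both constructs 13 lay above 0, against 55% of all genes. Their median log2 fold change was 0.03, against 0.02 over all genes. At an unadjusted p under 0.05, 1 was higher (1.35% of all genes were) and 2 were lower (2.74%). The lowest p belonged to Hspb6, a small heat shock protein of muscle (-1.41 ± 0.53, SE, FDR = 0.982, edgeR), and to Ptges3, the HSP90 co-chaperone p23 (0.32 ± 0.12, FDR = 0.982). Hspb6 was at 35.4 CPM in control tumor 3, the tumor with the most muscle RNA. It was at 9.67 and 5.55 CPM in control tumors 1 and 2, and at 3.76 to 11.3 CPM in shRNA tumors. The TRiC chaperonin, which folds actin and tubulin, had all 8 subunits above 0, with a median of 0.17. Of these Cct4 was at 0.23 ± 0.10 (SE, FDR = 0.982, edgeR) for the mean of both and at 0.44 ± 0.12 (FDR = 0.753) for sh3. Of 22 other ER stress genes, 16 lay above 0, with a median of 0.07 and none at an unadjusted p under 0.05. The 2 with the lowest p were Derl2, of the ER degradation channel (0.17 ± 0.12), and P4hb, a disulfide isomerase (0.19 ± 0.15). By construct, 20 of those 22 lay above 0 for sh2 (median 0.10) and 10 for sh3 (median -0.03). Of all genes, 51.8% and 54.9% did. Of 24 other integrated stress response genes, 18 lay above 0 (55% of all genes did), with a median of 0.17. At an unadjusted p under 0.05, 4 were higher (1.35% of all genes were) and 0 lower (2.74%). Cebpg (0.36 ± 0.12, SE, FDR = 0.982, edgeR) and Atf5 (0.50 ± 0.18, FDR = 0.982), transcription factors of the Atf4 family network, had the lowest p. The 14 immediate early genes, which mark abrupt stimulation and handling of tissue, lay evenly around 0 (7 above and 7 below, median 0.02), with Dusp1 at -0.30 ± 0.14 and Klf6 at 0.25 ± 0.17, and their summed level was 975.5 to 1042 CPM in control, 962.6 to 1189 CPM in sh2 and 1035 to 1224 CPM in sh3 tumors.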

How the data were processed

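Messenger RNA of 9 tumors was sequenced from TruSeq Stranded libraries. Per the labels, the authors mapped reads with STAR 2.5.3a to mm10 and counted them per gene with featureCounts; strand and multiple-mapping settings were not given in the sources used here. The deposited table holds raw counts, normalized CPM and TPM per tumor. The deposited CPM (a signal 1 factor per tumor away from the counts) and the TPM were checked against the counts. Columns with the authors' own edgeR comparisons (fold changes and p-values) were not used, and 0 per-sample columns were left out.

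The deposited counts were fitted with edgeR 4.0.16 in R 4.3.3 (TMM, filterByExpr, robust quasi-likelihood, all 9 tumors, 1 term per group), with Benjamini-Hochberg adjustment over 14725 genes and a threshold of 0.05. CPM in the text use TMM library sizes, and log2 CPM a prior count of 2. TPM were used as deposited. Fold changes are first group minus second. Exact permutation tests were two-sided; 3 against 3 tumors cannot go below p = 0.1. Alternatives were DESeq2 1.42.0 (size factors and Wald test), edgeR's likelihood ratio test, other filters, fits of the groups compared, merged constructs, a replicate block, each tumor left out, Hspa1a and Hspa1b summed, and, chosen after seeing the data, leaving out the 2 tumors with the most muscle RNA. Scripts were tested on simulated data. The members and lists were chosen with earlier results of these data known. Full statistics are given for the 4 members with the lowest p in each comparison and the lowest in each of 12 subgroups for the mean of both constructs, every tumor's value for the 6 most variable members, and the 2 genes with the lowest p in each other list. Figures used matplotlib 3.10.9.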

Additional observations from a re-analysis of the deposited data

How the results depend on the processing

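Of 19 alternatives, 17 passed no member in any comparison. With DESeq2's Wald test 2, 41, 9 and 48 genes passed for sh2 against control, sh3 against control, the mean of both and sh3 against sh2, with 0, 3, 1 and 2 members among them. With edgeR's likelihood ratio test 0, 8, 8 and 14 genes passed, with 1 member in the last. The count of members at an unadjusted p under 0.05 was 5 rather than 3 for sh2 when the fit held the groups compared alone. Over the fits that left out 1 tumor each, that count ran from 2 to 5 for sh2, from 6 to 14 for sh3, from 4 to 11 for the mean of both and from 4 to 8 for sh3 against sh2. Leaving out control tumor 3 and sh3 tumor 1 gave 6 for sh3 and 4 for the mean of both. The members' median log2 fold change ran from 0.12 to 0.27 for sh2, 0.10 to 0.22 for sh3, 0.16 to 0.23 for the mean and -0.05 to 0.06 for sh3 against sh2 in fits without 1 tumor; its spread between tumors was 0.08. For the mean of both, the log2 fold change of Hsf1 ran from -0.11 to 0.05 in fits without 1 tumor and turned to 0.03, 0.02, 0.04 and 0.05 without control tumor 1, sh2 tumor 1, sh2 tumor 3 and sh3 tumor 2, and that of Bag3 to -0.03 without control tumor 2. That of Hspa1b for sh3 against sh2, -0.01, ran from -0.16 to 0.19 and turned to 0.19 without sh2 tumor 3, and to 0.11 without sh3 tumor 1, alone or with control tumor 3. The cause of these changes was not tested.

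For tumors with the same number, the correlation of their deviations from the group means averaged -0.0991 over 9 pairs (-0.235 to 0.0863). For tumors of different groups and different numbers it averaged 0.0519 over 18 pairs (-0.297 to 0.385). Deviations from a group mean cancel out within the group, which ties these averages to each other. The check therefore cannot decide whether tumors with the same number share more than a number. With a replicate block, 0 genes passed in any comparison, and the members at an unadjusted p under 0.05 were 5 rather than 8 for the mean of both and 2, 10 and 5 in the other comparisons.

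Groups of 3 tumors, a low level of Tmprss11b (2 to 51 counts) and shared sequence (Hspa1a, Hspa1b and members with pseudogenes) limit what these counts can show.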
